A study of Mus musculus with 16 samples.

Results

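The cytosolic ribosomal proteins were taken as every row of the gene table whose name starts with Rpl, Rps or Rplp followed by a digit, with the kinases named Rps6k left out. The rule found 89 of 11631 genes. Of these, 76 were parent ribosomal protein genes, 30 of the small subunit, 43 of the large subunit and 3 of the stalk, a flexible arm of the large subunit. The other 13 were kept apart: 6 paralogs or retrogene-like copies (Rpl3l, Rpl22l1, Rps27l, Rps27rt, Rpl36al and Rpl7l1), 6 genes with a pseudogene name (Rpl10-ps3, Rpl36a-ps1, Rpl9-ps6, Rps12-ps3, Rpl7a-ps5 and Rpl27-ps3), and Rps19bp1, which encodes a protein that binds Rps19 and is not itself a ribosomal protein. RNA came from primary cultured cardiomyocytes of adult C57BL/6 mice kept for 24 h with 9 nmol/L linagliptin, an inhibitor of dipeptidyl peptidase-4, or with 0.1% DMSO as vehicle. Control cells, from mice of about 8 weeks, gave 5 libraries with vehicle and 5 with linagliptin. DM-HFD cells, from mice fed a high fat diet for 26 weeks and given streptozotocin after 12 weeks of it, gave 3 libraries with vehicle and 3 with linagliptin. Age, diet, streptozotocin and any difference in the preparation of the cells therefore cannot be told apart between the mice. The labels do not say whether replicates were separate animals, so p-values measure the spread between these samples, which may be technical.

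A cytosolic ribosome joins a small subunit, which reads the mRNA, to a large subunit, which forms the peptide bond and holds the exit tunnel for the new chain. Each ribosome carries about 1 copy of each ribosomal protein, and the cell keeps their supply balanced largely through translation of their mRNAs, which in mammals start with a tract of pyrimidines, the 5′ TOP motif, that mTOR and Larp1 act on. Ribosomal protein mRNAs are short and abundant, and in the heart ribosome content is known to rise in hypertrophic growth. The libraries were made from polyadenylated RNA, so they hold the mRNAs of ribosomal proteins and not ribosomal RNA.

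Values were FPKM, which scales fragments to transcript length and to the size of the library. The tables held no read totals, so the depth of each single library is unknown and precision comes from the replicates alone. The summed FPKM of a library ranged from 315152 to 344908 in control cells and from 326762 to 405457 in DM-HFD cells. Cardiomyocyte genes such as Myh6, Tnnt2 and Actc1 were abundant in all 4 conditions. Tests used limma with values as log2(FPKM + 1), SE is the standard error of a log2 fold change, and a gene was called at a Benjamini-Hochberg adjusted p under 0.05 over all genes tested. All 89 rows reached the filter of a mean of 0.5 FPKM in a compared group.

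In control cells with vehicle, the 76 parent genes together took 4.26% ± 0.661 (SD, n = 5) of the summed FPKM. Because the gene table divides by the length of all exons of a gene, levels of different genes were set side by side with the sum over the transcripts listed for each gene. On that scale Rpl23a was the highest at 728 ± 134 FPKM (SD, n = 5), followed by Rps24 at 696 ± 124, Rps15 at 680.5 ± 136, Rps3a1 at 671 ± 90.9 and Rplp1 at 654 ± 142. Each of these means lay within 1 SD of the next, so their order is not settled by the replicates. The lowest parent genes were Rps20 at 30.2 ± 5.76 FPKM, Rpl18 at 58.1 ± 10, Rps15a at 60.8 ± 11.5, Rpl22 at 73.4 ± 11.8 and Rps16 at 97.6 ± 18.6. Rps20 stood below Rpl18 by more than their SDs. The most abundant listed transcripts of Rps20, Rpl18, Rps15a and Rpl22 were long, at 3706, 2989, 5179 and 2048 nt. The median over the parent genes was 831.5 nt. For Rps16 the transcript sum was below its value of 129 FPKM in the gene table. How far these low levels depend on which transcripts were listed was not tested. In the gene table itself, the highest means in this condition were those of Rps3a1 at 671 ± 90.9, Rplp1 at 654 ± 142, Rpl36 at 595 ± 126, Rps15 at 543 ± 108 and Rpl17 at 536 ± 135 FPKM. The lowest 5 rows were all copies of other members, Rps27rt at 10.4 ± 2.21, Rpl27-ps3 at 9.11 ± 1.61, Rpl36a-ps1 at 2.71 ± 0.725, Rpl9-ps6 at 2.16 ± 0.403 and Rpl7a-ps5 at 0.814 ± 0.270 FPKM (SD, n = 5).

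The share of the summed FPKM taken by the 76 parent genes overlapped between all conditions. In control cells with vehicle it was 3.99%, 4.57%, 3.56%, 3.93% and 5.25% in replicates 1 to 5. With linagliptin the control replicates gave 4.08%, 4.5%, 3.61%, 4.89% and 5.0%. DM-HFD cells with vehicle gave 4.73%, 4.37% and 5.21%. DM-HFD cells with linagliptin gave 4.15%, 6.28% and 5.80%, which is both the widest spread and the highest value of the 16 libraries. Means ran from 4.26% ± 0.661 and 4.42% ± 0.579 in control cells (SD, n = 5 each) to 4.77% ± 0.421 and 5.41% ± 1.12 in DM-HFD cells (SD, n = 3 each), with vehicle and linagliptin respectively, and no neighbours in this order differed by more than their SDs. Under vehicle, the 13 mitochondrially encoded mRNAs made up 36.3% ± 1.2 of control and 47.8% ± 4.07 of DM-HFD libraries. Of the FPKM that did not come from mitochondrially encoded genes, the ribosomal proteins took 6.68% ± 0.966 (SD, n = 5) and 9.19% ± 1.18 (SD, n = 3) in those 2 conditions. The ratio of the summed large subunit genes, stalk included, to the summed small subunit genes was 1.65 ± 0.0277 in control cells with vehicle, 1.67 ± 0.0286 with linagliptin, 1.65 ± 0.0537 in DM-HFD cells with vehicle and 1.66 ± 0.0560 with linagliptin, so both subunits kept the same proportion within the spread of the libraries.

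**Figure D1:**
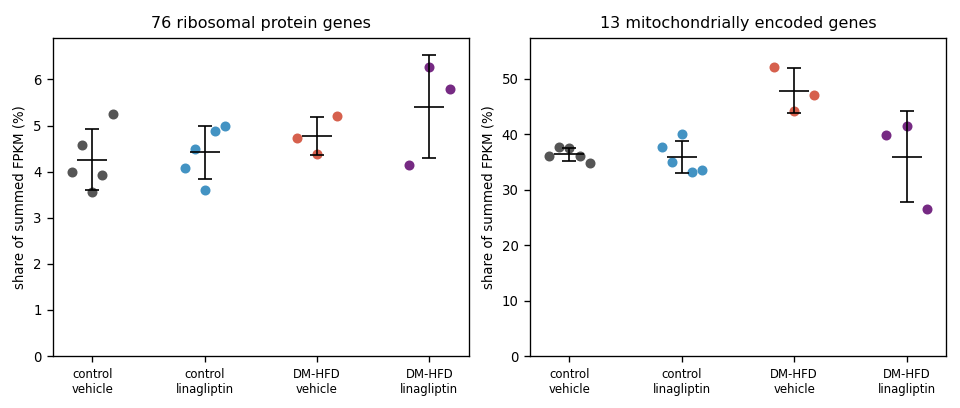
Share of the summed FPKM (%, axes from 0) taken in each library by the 76 parent ribosomal protein genes and by the 13 mitochondrially encoded genes. Points are libraries, horizontal marks and bars the mean ± SD of each condition (n = 5 or 3), and the ribosomal protein shares overlap between conditions, while those of mitochondrially encoded genes are highest in DM-HFD cells with vehicle.

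The members moved together from library to library. In control cells with vehicle, replicate 5 held the highest value for 73 of the 76 genes and replicate 3 the lowest for 54. With linagliptin, control replicate 5 held the highest for 49 and replicate 3 the lowest for 55. Among the DM-HFD libraries with vehicle, replicate 3 was highest for 63 genes and replicate 2 lowest for 65, and with linagliptin replicate 2 was highest for 75 and replicate 1 lowest for 68. The summed FPKM of the members differed by 1.54-fold between the highest and lowest control libraries with vehicle and by 1.67-fold between those of DM-HFD cells with linagliptin. The median coefficient of variation of a member in control cells with vehicle was 19.2% in FPKM and 6.59% as a share of the summed members, and in DM-HFD cells with linagliptin it was 26.4% and 8.13%. Most of the spread between replicates was thus common to the whole set, and the 76 tests below are not independent of each other.

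**Figure D2:**
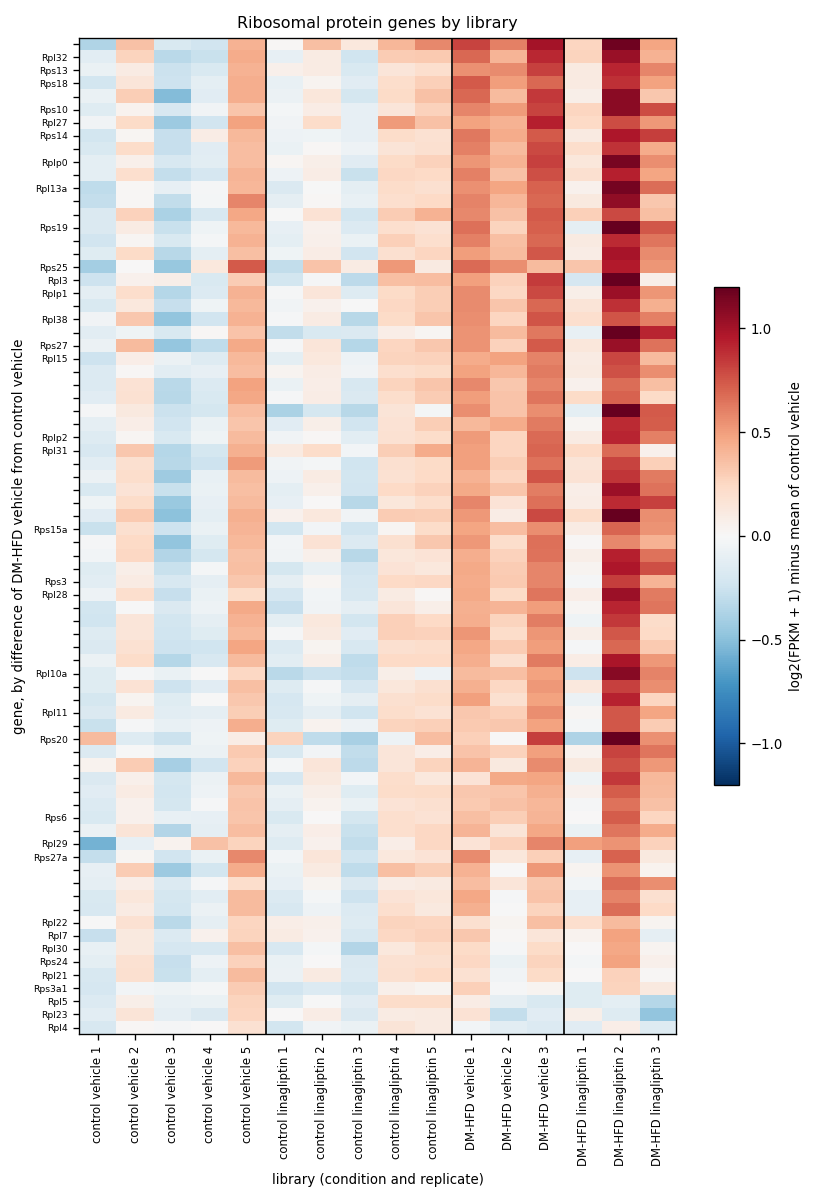
Difference of each parent gene from its mean in control cells with vehicle, on the log2(FPKM + 1) scale, in the 16 libraries (columns, by condition and replicate). Genes (rows) are in order of their difference between DM-HFD and control cells with vehicle, red is higher and blue lower, and whole columns change colour together, most of all DM-HFD linagliptin replicate 2, while Rpl4, Rpl5 and Rpl23 at the bottom stay pale or blue in the DM-HFD libraries.

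The comparison of DM-HFD with control cells under vehicle asked how cardiomyocytes of aged diabetic mice differ from those of young mice without the drug. Of the 76 parent genes, 28 were higher in DM-HFD cells and 0 lower, against 2.91% of the 11359 genes tested that were higher and 28.3% that were lower. An unadjusted p under 0.05 was reached by 57 of them, against 42.4% of all genes. The log2 fold change was above 0 for 73 of them, against 30.2% of all genes. Their median was 0.47 (range -0.11 to 0.81), and that of all genes tested was -0.20. All libraries of DM-HFD cells lay above all control libraries for 16 of the 76 genes, against 3.39% of all genes. The study's own criteria asked for 1.5-fold or more with an unadjusted p no greater than 0.05, and 10 of the 76 were higher by them, against 1.84% of all genes. Small subunit genes gave 13 calls of 30 with a median of 0.47, and large subunit genes with the stalk 15 of 46 with a median of 0.45.

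The most certain calls were mostly of the small subunit. Rps10, a protein of the small subunit's head that is ubiquitinated when ribosomes collide, is encoded on chromosome 17 of GRCm38 from 27630422 to 27636629. Its gene was 80.1, 91.8, 78.0, 86.4 and 112 FPKM in the control libraries with vehicle and 134, 127 and 156 in those of DM-HFD cells. Every DM-HFD library was above every control library, and the log2 fold change was 0.63 (SE 0.14, limma adjusted p = 0.00766). Rps13, on chromosome 7 of GRCm38 from 116331505 to 116334195, was 55.7, 63.1, 48.9, 51.8 and 78.8 FPKM in control and 86.4, 87.6 and 105 in DM-HFD cells. The lowest DM-HFD library exceeded the highest control library, and the log2 fold change was 0.65 (SE 0.16, limma adjusted p = 0.0132). Rps18, a protein of the small subunit's head on chromosome 17 of GRCm38 from 33951999 to 33956001, was 70.0, 90.5, 68.5, 75.1 and 111 FPKM in control and 136, 116 and 132 in DM-HFD cells, with no overlap and a log2 fold change of 0.64 (SE 0.17, limma adjusted p = 0.0155).

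Of the stalk proteins, which recruit the translation factors that hydrolyse GTP, 2 of 3 were called. Rplp0, the base on which the stalk is built, lies on chromosome 5 of GRCm38 from 115559467 to 115563727 and was 383, 434, 364, 382 and 536 FPKM in control and 599, 556 and 736 in DM-HFD cells with vehicle. These groups did not overlap either, and the log2 fold change was 0.59 (SE 0.16, limma adjusted p = 0.0156). Rplp2 had a log2 fold change of 0.48 (SE 0.16, limma adjusted p = 0.0390), and Rplp1 one of 0.53 (SE 0.19, limma adjusted p = 0.0549), which was not called. Rps14, whose loss causes the anaemia of the human 5q- syndrome, was 145, 171, 138, 179 and 221 FPKM in control and 262, 230.2 and 282 in DM-HFD cells, without overlap (log2 fold change 0.61, SE 0.16, limma adjusted p = 0.0165). Rpl13a, a large subunit protein known in human cells to leave the ribosome after interferon gamma, was 89.3, 111, 103, 109 and 145 FPKM in control and 162, 153 and 181 in DM-HFD cells, without overlap (log2 fold change 0.58, SE 0.16, limma adjusted p = 0.0176). Among members picked for their roles, Rps19, mutated in human Diamond-Blackfan anaemia, and Rpl10a were called at log2 fold changes of 0.55 and 0.40. Rps6, the substrate of the S6 kinases, had a value of 0.36 (adjusted p = 0.0682 from limma), Rpl11 0.39 (adjusted p = 0.0582), Rpl38 0.53 (adjusted p = 0.0839), Rps25 0.54 (adjusted p = 0.122) and Rps27a, made as a fusion with ubiquitin, 0.33 (adjusted p = 0.230), none of them called. The remaining calls, all higher, lay between 0.44 for Rpl28 and 0.67 for Rpl32.

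Rpl4, Rpl5 and Rpl23 lay lowest among the members with the values as deposited. Their log2 fold changes were -0.11, -0.07 and -0.08 with the values as deposited and 0.18, 0.22 and 0.20 with median-of-ratios scaling. With length and GC trends removed they were -0.18, 0.14 and -0.22 beside a members' median of 0.15, so Rpl5 was then close to the other members, as it was with linagliptin (0.19 beside 0.16). Rpl4, which lines the exit tunnel of the large subunit, was 325, 376, 370.0, 375 and 424 FPKM in control and 364, 341 and 333 in DM-HFD cells with vehicle, and all DM-HFD libraries fell inside the control range (log2 fold change -0.11, SE 0.12, limma adjusted p = 0.510). Rpl5, which with Rpl11 and 5S ribosomal RNA forms a particle that also binds Mdm2, was 109, 128, 115, 116 and 148 FPKM in control and 130.0, 113 and 108 in DM-HFD cells. Here DM-HFD replicate 3, the library highest for most other members, was the lowest of the 8 (log2 fold change -0.07, SE 0.13, limma adjusted p = 0.729). Rpl23, at the face of the large subunit that meets the small one and that the factor Eif6 covers, was 178, 217, 181, 174 and 234 FPKM in control and 220.0, 160.1 and 178 in DM-HFD cells, with wide overlap (log2 fold change -0.08, SE 0.15, limma adjusted p = 0.698). When each library was scaled to the same sum of the 76 members, a choice made after the values were seen, these 3 were lower in DM-HFD cells with vehicle and no member was higher, against 48.6% of all genes lower and 0.651% higher on that scale. The median of all genes was then -0.51, close to the values of these 3, which were picked out as the lowest members. The log2 fold change was then -0.54 for Rpl4 (adjusted p = 0.0113 from limma), -0.50 for Rpl5 (adjusted p = 0.0204) and -0.52 for Rpl23 (adjusted p = 0.0143). The paralog Rpl7l1 was lower as well on that scale (-0.45, adjusted p = 0.0490). A further 9 parent genes lay between 0 and 0.3 without that scaling, including Rps3a1 at 0.10, Rpl21 at 0.12, Rps24 at 0.15 and Rpl30 at 0.15, and 64 lay above 0.3.

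The count of calls depended on the scaling and on single libraries. Median-of-ratios scaling, which moved the median of all genes from -0.20 to 0.01, called 64 of the 76 higher, against 13.4% of all genes, and 0 lower. TPM, which moved it to -0.47, called 2 higher (Rps10 among them) and 2 lower (Rpl4 and Rpl5), against 1.07% of all genes higher and 46.8% lower. Relative to all genes, the median of the members was 0.66 higher with the values as deposited, 0.74 with median-of-ratios scaling, 0.68 with TPM, 0.35 with quantile scaling and 0.33 with length and GC trends removed. The count was 1 (Rps10) without DM-HFD vehicle replicate 3, 7 without DM-HFD vehicle replicate 1, 8 without control vehicle replicate 1, 8 without control vehicle replicate 3, 12 without control vehicle replicate 4 and 59 without control vehicle replicate 5, while the share of all genes called higher ran from 1.01% to 4.11% in these fits. Of the genes named above with their libraries, Rps10 stayed called whichever library was left out. By contrast, Rps13, Rps18, Rplp0, Rps14 and Rpl13a were not called without DM-HFD vehicle replicate 3 (adjusted p of 0.0588 to 0.0812 from limma), nor was Rps18 without DM-HFD vehicle replicate 1 (adjusted p = 0.0531). The model of Ballgown, which adds a size term for each library, called 0 of 11359 genes and turned the members' median to -0.18. The median FPKM of a library was 4.66 to 5.14 in control and 3.66 to 3.90 in DM-HFD cells with vehicle, without overlap. How far the size term took up the contrast of the mice was not tested.

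Transcript length, base composition and other cell types moved with the same comparison. The members' median transcript was 831.5 nt long against 2838 nt for all genes, and the differences of 11238 genes were related to length (Spearman's rho -0.48) and to GC content (0.50), with genes as points that are no replicates. Other genes with a transcript under 1500 nt had a median of 0.06, with 8.10% called higher, against 0.47 for the 67 members under that length. Within the 76 members rho was -0.24 with length and 0.37 with GC content. With length and GC trends removed, the members' median was 0.15, against -0.17 for all genes, 66 of the 76 were above 0, and 4 were called higher (Rps15a, Rpl15, Rps20 and Rps3), against 1.58% of all genes. Of the markers of other cells, 4 of 7 for macrophages and leukocytes were higher in DM-HFD cells with vehicle. For erythroid cells 3 of 4 were higher, and 2.91% of all genes tested were higher. Lower were 5 of 6 endothelial, 2 of 6 pericyte and smooth muscle and 5 of 9 cardiomyocyte markers, against 28.3% of all genes. Fibroblast markers gave 0 calls of 6 (0 at an unadjusted p under 0.05). The summed FPKM of the macrophage and leukocyte list was 56.6 to 80.2 in the control libraries and 69.4 to 149 in those of DM-HFD cells, with no listed marker at 0 in either condition, and Ptprc was not in the table. The erythroid list summed to 7.96 to 19.8 and 19.7 to 84.0 FPKM, the endothelial list to 98.1 to 127 and 46.9 to 78.3, and the cardiomyocyte list to 5712 to 6508 and 4317 to 5887. The part of these cells in the ribosomal protein values was not tested, and in bulk RNA fewer cells of a type cannot be told apart from less RNA per cell.

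With linagliptin in both kinds of mice, the same contrast gave fewer calls. Of the 76 parent genes 4 were higher in DM-HFD cells and 0 lower, against 4.67% of 11555 genes higher and 21.9% lower, and 36 had an unadjusted p under 0.05, against 42.7% of all genes. The median log2 fold change was 0.41 (range -0.23 to 0.79), against -0.06 for all genes, and 73 of 76 were above 0, against 45% of all genes. Without DM-HFD linagliptin replicate 2 the median was 0.20 and 3 members had an unadjusted p under 0.05, and without DM-HFD linagliptin replicate 1 it was 0.60. At the thresholds of the study 10 were higher, against 3.83% of all genes, and 2 (Rpl29 among them) lay wholly above the control libraries, against 6.25%. Among the 4 called, Rpl28 of the large subunit was 117, 132, 118, 145 and 136 FPKM in control and 143, 276 and 209 in DM-HFD cells with linagliptin (log2 fold change 0.64, SE 0.20, limma adjusted p = 0.0404). DM-HFD replicates 2 and 3 were far above the control range while replicate 1 was inside it. Rps10 was 87.6, 94.5, 82.8, 98.5 and 108 FPKM in control and 107, 189.9 and 154 in DM-HFD cells (log2 fold change 0.63, SE 0.19, limma adjusted p = 0.0348), and Rps14 was 161, 163, 157, 196 and 191 and 182, 332 and 300.4 (log2 fold change 0.60, SE 0.20, limma adjusted p = 0.0495). Replicate 1 of the DM-HFD cells was again inside the control range for both. Without that library 51 of the 76 were called higher, against 20.4% of all genes, and without any other library of this comparison 0 were. Across all 16 libraries in 1 fit 24 were called, against 9.53% of all genes, with median-of-ratios scaling 41, against 12.9%, and with quantile scaling, with TPM or with length and GC trends removed 0. Summed erythroid markers ranged from 6.92 to 435 FPKM and summed macrophage and leukocyte markers from 64.3 to 263 FPKM over these 3 DM-HFD libraries, and their part in the values was not tested.

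The members' differences were alike in both comparisons of the mice, which share no library. All 73 genes above 0 with vehicle were above 0 with linagliptin, and the same 3 were below 0 in both with the values as deposited, while median-of-ratios scaling put all 3 above 0 with vehicle and Rpl4 above 0 with linagliptin (0.07). Over the 76 genes, which share libraries and are not replicates, Pearson's r between the log2 fold changes was 0.69 and Spearman's rho 0.51. The 4 genes called with linagliptin were all called with vehicle, 100% of the smaller list and 14.3% of the larger. With linagliptin Rpl5 was 110.3, 122, 111, 143 and 142 FPKM in control and 111, 112 and 96.4 in DM-HFD cells (log2 fold change -0.23, SE 0.14, limma adjusted p = 0.238), Rpl23 was 196, 207, 173, 209 and 210.1 and 206, 176 and 140.2 (log2 fold change -0.21, SE 0.15, limma adjusted p = 0.317), and Rpl4 was 320.4, 361, 353, 415 and 402 and 339, 394 and 336 (log2 fold change -0.05, SE 0.14, limma adjusted p = 0.787). Scaled to the summed members, Rpl5 was lower in this comparison as well (log2 fold change -0.63, adjusted p = 0.0236 from limma), against 34.3% of all genes lower and a median of all genes of -0.36, while Rpl4 and Rpl23 at -0.46 and -0.61 were not called (adjusted p = 0.0501 and 0.0559).

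**Figure D3:**
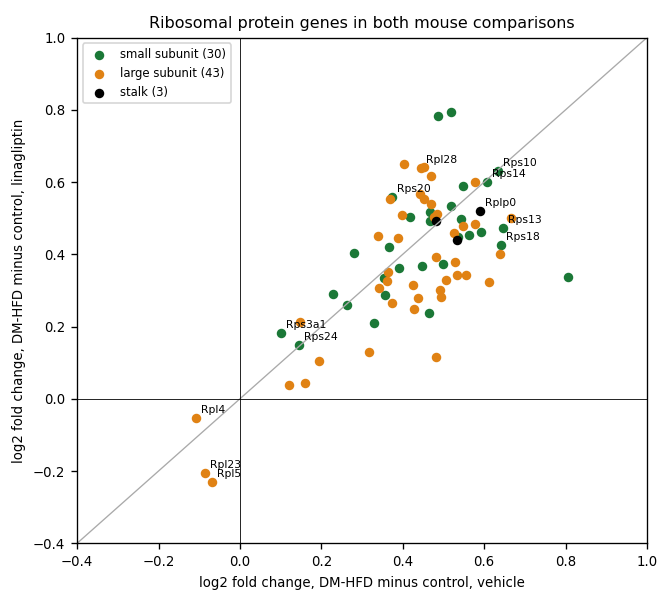
Log2 fold change of each parent gene between DM-HFD and control cells with vehicle (x axis) and with linagliptin (y axis), coloured by subunit, with a grey line where both are equal. Of the 76 genes 73 lie above 0 on both axes, and Rpl4, Rpl5 and Rpl23 lie below 0 on both (with median-of-ratios scaling all 3 lie above 0 on the x axis, and with length and GC trends removed Rpl5 lies above 0 on both).

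Linagliptin against vehicle was the drug comparison of the study's RNA sequencing, and for ribosomal proteins it showed no call in either kind of cell. In control cells 0 of the 76 genes passed in either direction, against 0% of 11365 genes by limma, 0 had an unadjusted p under 0.05, against 4% of all genes, and both other models run, that of Ballgown and an unmoderated linear one, also called 0. Their median log2 fold change was 0.04 (range -0.17 to 0.29), with 55 above 0 against 57.2% of all genes, whose median was 0.02. Among the 3 higher genes with the lowest unadjusted p were Rpl31 at 0.21 (unadjusted p = 0.213 from limma) and Rpl27 at 0.19 (unadjusted p = 0.303 from limma). Among lower rows the lowest belonged to the pseudogene-named Rpl27-ps3 at -0.45 (unadjusted p = 0.0213 from limma) and Rpl36a-ps1 at -0.47 (unadjusted p = 0.0213 from limma), and to Rpl10a at -0.17 (unadjusted p = 0.125 from limma). In DM-HFD cells 0 of the 76 passed, against 0% of 11127 genes, and 0 had an unadjusted p under 0.05, against 1.16%. The median was -0.0018 (range -0.17 to 0.20), with 38 genes above 0, against 74.8% of all genes, and 38 below, and that of all genes was 0.12. With the 2 other tools the count stayed 0, although the model of Ballgown gave a median of -0.51. It placed 10 members lower at the thresholds of the study. The share of all genes lower under that model is not given here, so this count cannot be read as particular to the members. With limma those thresholds gave 0 of the members and 0.162% of all genes. Rps27rt had the lowest unadjusted p of any member in DM-HFD cells, and Rps27l at -0.31 (unadjusted p = 0.344 from limma) and Rpl22l1 at -0.16 (unadjusted p = 0.461 from limma) were next among lower rows. Higher rows were led by Rps19bp1 at 0.31 (unadjusted p = 0.149 from limma), Rpl27-ps3 at 0.37 (unadjusted p = 0.260 from limma) and Rpl7a-ps5 at 0.13 (unadjusted p = 0.519 from limma). The difference between the responses of DM-HFD and control cells was tested directly as an interaction. Of the 76 genes 0 passed, against 0% of 11631 genes, 0 had an unadjusted p under 0.05, against 4.57%, and the median was -0.04 (range -0.47 to 0.30). The SE of Rps10 for linagliptin against vehicle was 0.11 in control and 0.24 in DM-HFD cells. A call needs a difference of several SEs, so differences well above these sizes could also be missed with this number of libraries. In DM-HFD cells no gene was called, although log2 fold changes of all genes tested ran from -1.62 to 2.99 (lowest limma adjusted p = 0.252).

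The paralogs of ribosomal proteins can replace their parent in some ribosomes. Rpl3l is made in heart and skeletal muscle in place of Rpl3. The 2 reading frames differ throughout, as the first 120 coding bases show, from GENCODE transcripts of GRCm38, with capitals at the 31 positions where the pair differ.
Rpl3l (chromosome 17): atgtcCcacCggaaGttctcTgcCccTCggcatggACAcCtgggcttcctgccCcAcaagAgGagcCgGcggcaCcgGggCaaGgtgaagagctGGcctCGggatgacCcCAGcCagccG
Rpl3 (chromosome 15): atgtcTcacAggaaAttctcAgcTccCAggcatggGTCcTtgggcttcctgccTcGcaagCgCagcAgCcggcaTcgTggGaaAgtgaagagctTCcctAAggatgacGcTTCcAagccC
Over the aligned 97.9% of the Rpl3 reading frame the identity was 74.4%, so most reads of the 2 genes can be told apart. Rpl3l was 77.9, 72.8, 63.5, 82.3 and 69.5 FPKM in control cells with vehicle, 69.3, 64.1, 75.9, 67.3 and 62.1 with linagliptin, 58.7, 85.6 and 67.1 in DM-HFD cells with vehicle and 80.6, 49.9 and 108 with linagliptin. Rpl3 was 70.8, 87.8, 88.5, 74.4 and 105 FPKM in control cells with vehicle and 119, 102 and 152 in DM-HFD cells with vehicle, a called rise with a log2 fold change of 0.53 (SE 0.17, limma adjusted p = 0.0337), while that of Rpl3l was -0.07 (SE 0.15, limma adjusted p = 0.761). With linagliptin Rpl3 was 72.5, 83.7, 67.5, 109 and 109.7 FPKM in control and 73.3, 204 and 88.7 in DM-HFD cells, where the library with the most Rpl3 held the least Rpl3l. The ratio of Rpl3l to Rpl3 ranged from 0.664 to 1.11 in control cells with vehicle and from 0.442 to 0.838 in DM-HFD cells with vehicle. The mean log2 ratio differed by -0.60 (exact two-sided permutation test, p = 0.143, adjusted p = 0.571 over 12 tests of 3 pairs in 4 comparisons), -0.42 to -0.88 with 1 library left out, and in DM-HFD cells with linagliptin the ratio spanned 0.244 to 1.22.

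Rps27, a small subunit protein with a zinc finger, has 2 copies among the members. Rps27l, a paralog that p53 induces, shared 76.3% of the aligned positions. Its ratio to Rps27 was 0.707 to 0.891 in control cells with vehicle, 0.768 to 0.829 in control cells with linagliptin, 0.730 to 0.852 in DM-HFD cells with vehicle and 0.450 to 0.721 in DM-HFD cells with linagliptin. All 3 libraries of the last condition lay below all 5 control libraries with linagliptin, with a mean log2 ratio lower by 0.43 (difference -0.43, exact two-sided permutation test, p = 0.0357, adjusted p = 0.429 over the 12 tests), and also below all 3 DM-HFD libraries with vehicle (difference -0.40, p = 0.1, the smallest that 3 against 3 allows, adjusted p = 0.571). Without DM-HFD linagliptin replicate 3 these differences were -0.23 and -0.20. The p of 0.0357 is likewise the smallest that 5 against 3 libraries allow in this two-sided test, and no ratio passed the adjustment. Rpl22l1, the paralog of Rpl22, was 0.211 to 0.321 of Rpl22 in control cells with vehicle and 0.190 to 0.252 in DM-HFD cells with linagliptin, and the mean log2 ratio differed by -0.21 to 0.03 over the 4 comparisons (exact permutation p of 0.246 to 1).

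Rps27rt, a retrogene on chromosome 9 of GRCm38 from 114982366 to 114982739, carries the whole reading frame of Rps27 without a mismatch in 255 bases. The first 120 of them, the same in both genes, are shown because reads from this stretch cannot be assigned to one of them.
Rps27 and Rps27rt: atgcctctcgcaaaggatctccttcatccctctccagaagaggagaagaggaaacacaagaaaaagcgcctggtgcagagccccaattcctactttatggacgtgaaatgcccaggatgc
Rps27rt was 7.17, 10.6, 9.86, 10.9 and 13.3 FPKM in control cells with vehicle and 15.4, 15.0 and 20.2 in DM-HFD cells with vehicle, with no overlap (log2 fold change 0.67, SE 0.18, limma adjusted p = 0.0175), a call lost without DM-HFD vehicle replicate 3 (adjusted p = 0.0844). With linagliptin it was 9.78, 10.9, 10.1, 11.4 and 11.3 FPKM in control and 8.24, 14.8 and 8.24 in DM-HFD cells (log2 fold change -0.08, SE 0.19, limma adjusted p = 0.766). In DM-HFD cells every library with linagliptin was therefore below every library with vehicle, against 0.62% of all genes, with a log2 fold change of -0.68 (SE 0.26, limma adjusted p = 1.00) and an unadjusted p of 0.0301. Rps27 itself was 134, 183, 101, 113 and 193 FPKM in control and 205, 169.9 and 234 in DM-HFD cells with vehicle (log2 fold change 0.52, SE 0.22, limma adjusted p = 0.103), and 154, 289 and 221 in DM-HFD cells with linagliptin. The retrogene was at 0.0754 to 0.0884 of Rps27 in DM-HFD cells with vehicle and at 0.0373 to 0.0535 in those with linagliptin. How the authors' counting divided shared reads is not given in the sources used here, so levels of this copy are uncertain.

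**Figure D4:**
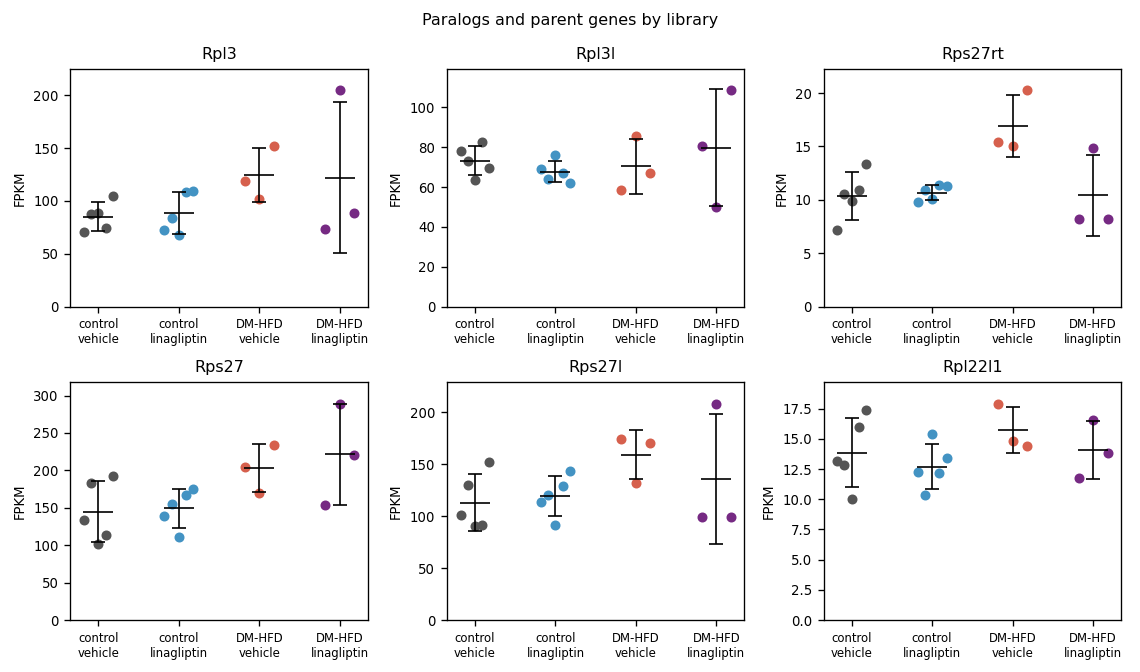
FPKM (axes from 0) of Rpl3 and its muscle paralog Rpl3l, of Rps27 with its copies Rps27rt and Rps27l, and of Rpl22l1, in each library (points) with the mean ± SD of each condition (n = 5 or 3). Rps27rt is higher in all 3 DM-HFD libraries with vehicle than in all control libraries, and DM-HFD linagliptin replicate 2 is the highest for Rpl3 and the lowest for Rpl3l.

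Rpl36al, which shared 87.9% of aligned positions with Rpl36a, was 93.6 ± 28.8 FPKM in control and 96.9 ± 12.1 in DM-HFD cells with vehicle (SD, n = 5 and 3), a log2 fold change of 0.09, beside 0.32 for Rpl36a. Rpl7l1, which takes part in building the large subunit and shared 56.9% of aligned positions with Rpl7, had log2 fold changes of -0.03 with vehicle and -0.05 with linagliptin, beside 0.16 and 0.04 for Rpl7. Of the pseudogene-named rows, Rpl10-ps3, Rps12-ps3 and Rpl27-ps3 matched their parents' reading frames at every position, Rpl9-ps6 at 99.8%, Rpl7a-ps5 at 98.1% and Rpl36a-ps1 at 97.8%, so all 6 could hold reads of the parent. Rpl27-ps3 was 4.72, 4.88, 6.83, 9.61 and 6.44 FPKM in control and 8.27, 18.9 and 18.5 in DM-HFD cells with linagliptin, where it was called higher (log2 fold change 1.07, SE 0.29, limma adjusted p = 0.0242). The called difference rests on replicates 2 and 3 of the DM-HFD cells, since replicate 1 lay in the control range, and it was no longer called without either of them or without control linagliptin replicate 1 or 2. For Rpl27 itself it was 0.32 (limma adjusted p = 0.201). The other 5 pseudogene-named rows and Rps19bp1 passed in neither comparison, with log2 fold changes of -0.13 to 0.38 with vehicle and 0.11 to 0.53 with linagliptin.

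Promoters were compared because the members moved together. RefSeq windows of GRCm38.p6, from 250 bases before to 50 after each RefSeq start, were found for 56 of the 76 parent genes. A run of C followed by at least 6 of C or T, on the strand of the transcript and within 25 bases of the start, was in 33 of the 56 (58.9%), against 26.0% of 27025 genes. Those 27025 go beyond the 11631 genes of the gene table, and shares among its genes alone were not computed. The motif CCGGAAG, read by ETS factors, was on either strand in 41.1% of the members and 9.93% of the 27025 genes. GGGCGG, read by Sp1, was in 60.7% and 38.2%, AAGATGGC in 8.93% and 3.19%, and TATAAA in 10.7% and 15.7%, and none of these motifs holds another. The 4 members with the lowest p with vehicle that had a window are shown from 60 bases before to 30 after the start, with the tract in capitals where there is one.
Rps10 (chr17:27635215-27635304, minus strand): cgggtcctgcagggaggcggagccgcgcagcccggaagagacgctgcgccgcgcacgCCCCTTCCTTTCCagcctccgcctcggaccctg
Rps13 (chr7:116334161-116334250, minus strand): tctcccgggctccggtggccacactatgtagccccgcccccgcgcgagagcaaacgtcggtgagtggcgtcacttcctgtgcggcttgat
Rps18 (chr17:33955636-33955725, minus strand): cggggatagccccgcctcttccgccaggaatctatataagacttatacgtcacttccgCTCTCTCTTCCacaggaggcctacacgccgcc
Rplp0 (chr5:115559407-115559496, plus strand): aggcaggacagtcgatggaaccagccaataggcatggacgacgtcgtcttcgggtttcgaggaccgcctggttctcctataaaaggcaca
Of these 4, Rps10 and Rps18 had a tract by this definition, of 13 and 11 bases. The search depends on the RefSeq start, and in Rplp0 TATAAA lies after that start. Members without a tract here may therefore have one at another start, which was not tested. Members with a tract had a median log2 fold change of 0.47 with vehicle, and those without had 0.45. Called higher were 15 of 33 with a tract and 6 of 23 without, against 2.91% of all genes tested. With linagliptin in both kinds of mice, the medians were 0.45 with a tract and 0.32 without. There 2 of 33 and 0 of 23 were called higher, against 4.67% of all genes. Of the 3 members below 0 with the values as deposited, Rpl4 and Rpl5 had a tract, of 13 and 9 bases, and Rpl23 had none by this definition.

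Ribosomal genes outside the name rule moved with the members. Fau, which encodes small subunit protein eS30 joined to a ubiquitin-like protein, Rack1, a scaffold on the small subunit, and Rpsa, its laminin receptor protein, were called higher in DM-HFD cells with vehicle, at log2 fold changes of 0.43, 0.56 and 0.63. Rack1 was 104 ± 1.47 FPKM (SD, n = 3) in DM-HFD and 71.1 ± 10.1 (SD, n = 5) in control cells. With linagliptin their values were 0.79, 0.65 and 0.43, none of them called (adjusted p = 0.0537, 0.0524 and 0.121 from limma). A list of 15 further genes with a 5′ TOP tract or bound to ribosomes held these genes and gave 4 higher and 4 lower calls, the lower ones being Hnrnpa1, Nap1l1, Npm1 (-0.80) and Serbp1. Counts in the lists of the wider translation machinery stand beside the 28.3% of all genes that were lower with vehicle and the 2.91% that were higher. Under vehicle, DM-HFD cells had 6 of 39 initiation factors higher and 13 lower, with a median log2 fold change of -0.21 beside -0.20 for all genes. Eif6, the factor bound at Rpl23, was higher at 45.8 ± 10.6 FPKM (SD, n = 3) against 24.7 ± 5.14 (SD, n = 5), and Eif3d, Eif3g, Eif3h, Eif3i and Eif3k of the Eif3 complex were higher by 0.33 to 0.43 on the log2 scale. Eif5, which activates the GTPase of the initiation complex, and Eif3a, the largest Eif3 subunit, were lower at -1.40 and -1.22. Of 13 elongation and termination factors Eif5a (0.47) and Eef1g (0.32) were higher, and Abce1, which recycles ribosomes, Gspt1, Etf1 and Hbs1l were lower (-1.09 to -0.65). Of the 63 ribosome biogenesis genes tested 3 were higher and 25 lower, with a median of -0.20, among them nucleolin (Ncl) at 32.2 ± 6.47 FPKM against 73.0 ± 9.26. Of 14 RNA polymerase I genes 0 were higher and 3 lower (5 of 14 at an unadjusted p under 0.05 in either direction). Of 18 genes of mTOR and Larp1 signalling Eif4ebp1, a repressor of cap-dependent initiation, was higher at 109 ± 16.5 against 74.1 ± 10.6 FPKM, and Larp1, Larp4, Rps6kb1 and Rps6ka3 were lower. The 78 mitochondrial ribosomal proteins, which serve the separate ribosomes of mitochondria, gave 4 higher and 2 lower calls with a median of 0.08, beside 0.47 for the 76 cytosolic ones. With linagliptin, where 4.67% of all genes were higher and 21.9% lower, DM-HFD cells had 5 initiation factors higher and 12 lower, 3 and 3 elongation and termination factors, 5 and 14 biogenesis genes, 1 and 2 RNA polymerase I genes, 2 and 4 genes of mTOR and Larp1 signalling and 5 and 2 mitochondrial ribosomal proteins. Between linagliptin and vehicle no gene of these lists was called in control or DM-HFD cells, as for all genes tested.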

How the data were processed

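Primary cardiomyocytes of control and DM-HFD mice gave 16 poly(A)-selected RNA libraries in 4 conditions. Per the labels, reads were checked with FastQC v0.11.7, trimmed with cutadapt, aligned to GRCm38 with HISAT2 v2.1.0 and assembled with StringTie v1.3.3, and the authors deposited FPKM per gene and per transcript. Only protein-coding rows were listed. Columns were matched to samples by name. From the gene values, log2(FPKM + 1) was fitted with limma 3.58.1 (R 4.3.3, trended variance) in the samples compared, for genes whose mean reached 0.5 FPKM in either condition of a comparison, with Benjamini-Hochberg adjustment over all of them and a threshold of 0.05. The fit was tested on simulated data. Ratios of paralogs were tested by exact two-sided permutation. Named genes were the 5 highest and 5 lowest in control cells with vehicle, the 8 called members with the lowest p in each direction and comparison or the 3 lowest where none was called, the paralogs with their parents, and members with known roles, of which some are not reported here. Rpl4, Rpl23, Rpl29, Rps3a1, Rpl21, Rps24, Rpl30, other called members and the sequences were chosen after values were seen. The members and lists were chosen with earlier results of these data known. Alternatives were other scalings, pseudocounts, filters, models, transcript sums, length and GC trends, a replicate block and leaving out each library. Scaling to the summed members was added after seeing the data. Length and GC were known for all 89 members, from GENCODE transcripts, and 56 of 76 promoters were matched to RefSeq by symbol. Because a fold is on the scale of FPKM + 1, it understates the change of low genes.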

Additional observations from a re-analysis of the deposited data

Results flagged for a closer look

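In 1 of the 86 groups of 4 to 10 libraries tested, a single library stood apart from the rest by Dixon's criterion, which chance alone meets in about 1 in 20 groups. The ratio of summed large subunit genes to summed small subunit genes was 1.62 in control linagliptin replicate 3 and 1.67 to 1.69 in the other 4 control libraries with linagliptin. The same library held the lowest value of 55 of the 76 parent genes in its condition. Ratios as low occurred in other conditions, at 1.62 in control vehicle replicates 3 and 4 and 1.61 in DM-HFD vehicle replicate 1.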

How the results depend on the processing

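The depth of each single library is unknown, and 3 or 5 libraries a group limit every comparison. In DM-HFD against control cells with vehicle, the number of members called higher (28) was 64 with median-of-ratios scaling, 48 without mitochondrially encoded genes, 17 with transcript sums, 10 with an unmoderated linear model, 4 with length and GC trends removed, 2 with TPM, and 0 with the model of Ballgown or with scaling to the summed members. It ran from 1 to 59 when 1 library was left out. The number called lower was 1 with quantile scaling, 2 with TPM and 3 with scaling to the summed members. Their median (0.47) was 0.75 with median-of-ratios scaling, 0.21 with TPM, 0.15 with length and GC trends removed, 0.0366 with scaling to the summed members, and reversed to -0.18 with the model of Ballgown, under which Rps13 (-0.0657) and Rps18 (-0.12) also reversed. Over all genes, 331 higher and 3220 lower calls became 1527 and 1779 with median-of-ratios scaling. With linagliptin, the number called higher (4) was 41 with median-of-ratios scaling, 24 with all 16 libraries in 1 fit, 2 without mitochondrially encoded genes, 2 with transcript sums, and 0 with quantile scaling, TPM, length and GC trends removed, the model of Ballgown, an unmoderated linear model or scaling to the summed members. It ran from 0 to 51 when 1 library was left out. The number called lower was 1 with quantile scaling and 1 with scaling to the summed members, and the median (0.41) was 1.18 with the model of Ballgown and 0.00739 with scaling to the summed members. In DM-HFD cells the median response to linagliptin was -0.51 with the model of Ballgown.

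Whether replicate numbers pair the libraries is not known. Deviations of same-numbered vehicle and linagliptin libraries correlated at 0.28 to 0.51 for 4 of 5 control numbers, 3 of 5 matching their own number best, and at -0.32 for replicate 4, and at -0.60 to 0.19 in DM-HFD cells, so the numbers were not taken as pairs. With a replicate block the members called higher were 10 with vehicle and 0 with linagliptin. With the replicate block and length and GC trends removed they were 0 and 0, and the median with vehicle was 0.21. No member was called for linagliptin against vehicle or for the interaction under any alternative. The share of FPKM taken by the members in control vehicle, control linagliptin, DM-HFD vehicle and DM-HFD linagliptin libraries was 6.68%, 6.86%, 9.19% and 8.50% without mitochondrially encoded genes and 5.77%, 6.01%, 6.75% and 7.31% with transcript sums. The causes of these changes were not tested.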
